A study of Mus musculus with 2 samples.

Results

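The miR-29 family was examined in the kidneys of mouse embryos as 4 genes, Mir29a, Mir29b-1, Mir29b-2 and Mir29c. They were chosen by gene symbol among the 1973 annotated miRNA genes of the deposited count tables, and all 4 have a row there. MicroRNAs were sequenced from total RNA, in libraries of inserts under 30 nucleotides, of B6NCrl mouse kidneys at 14.5 days of gestation, when the ureteric bud branches and the first nephrons form. There was 1 group with 2 biological replicates, each made from 2 kidneys and collected on a different day. The labels give pooled male and female material in one field and a single pup in another, so the number of embryos behind each sample is not settled, and the SDs below measure only the spread between these 2 samples. The tissue is whole kidney, so fewer cells of a type and less RNA per cell cannot be told apart. With no contrast between conditions, the comparisons are among the members, with other miRNA genes and between the replicates.

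A microRNA is cut from a hairpin precursor, and 1 arm of the hairpin is loaded into an Argonaute protein, where bases 2 to 8 (the seed) pair with messenger RNAs and lower their output. The miR-29 family is known for repressing mRNAs of the extracellular matrix, among them collagens, elastin and fibrillin. In models of kidney fibrosis TGF-beta signalling lowers it, which is why it is called anti-fibrotic. The libraries hold no measure of fibrosis or of any target mRNA, so that name is background here and was not tested.

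The 3p arms are shown because the whole family is defined by their common seed, in capitals (sequences from RefSeq, build GRCm38.p6, 5′ to 3′).
mmu-miR-29a-3p: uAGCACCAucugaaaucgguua
mmu-miR-29b-3p: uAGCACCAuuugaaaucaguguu
mmu-miR-29c-3p: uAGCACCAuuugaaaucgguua
Of 1738 mature arms in the RefSeq table, 4 carry this seed, and they belong to the 4 members. The 4 arms have 3 distinct sequences, since Mir29b-1 and Mir29b-2 make the same miR-29b-3p. Counting positions from 1 at the 5′ end, miR-29a-3p and miR-29c-3p differ by the single substitution C10U. The first 17 bases of miR-29b-3p and miR-29c-3p are identical, and these arms differ by A18G, G21U and U22A and in length, at 23 bases for miR-29b-3p and 22 for miR-29c-3p.

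The 5p arms, the opposite strand of each hairpin, are shown because they are where the miR-29b genes can be told apart (capitals again mark bases 2 to 8).
mmu-miR-29a-5p: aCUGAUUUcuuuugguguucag
mmu-miR-29b-1-5p: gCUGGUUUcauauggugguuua
mmu-miR-29b-2-5p: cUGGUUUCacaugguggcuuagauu
mmu-miR-29c-5p: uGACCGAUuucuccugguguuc
Each whole 5p arm was found in 1 of the 2202 annotated miRNA hairpins, its own. The deposited tables count reads per gene and do not say from which arm a read came.

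The 4 genes form 2 clusters, each with 1 miR-29b gene beside a member of its own sequence. On chromosome 6, minus strand, Mir29a (ENSMUSG00000065610.1) spans chr6:31062660-31062747 and Mir29b-1 (ENSMUSG00000065604.1) spans chr6:31063023-31063093, with 275 bases between the hairpins. No annotated gene on either strand overlaps Mir29a, and Mir29b-1 overlaps the noncoding RNA gene Gm27019 by 2 bases on its own strand. On chromosome 1, plus strand, Mir29b-2 (ENSMUSG00000065412.2) spans chr1:195037040-195037120 and Mir29c (ENSMUSG00000065548.1) spans chr1:195037547-195037634, with 426 bases between them. Both of these hairpins lie whole within an exon of the noncoding RNA gene A330023F24Rik, and on the opposite strand within an exon of the protein-coding gene Cd46, which encodes a complement regulator. No member had a count on the strand opposite to it in either replicate.

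The hairpins show how far the shared stretch reaches beyond the mature arm, and capitals mark the longest run that also occurs in another annotated miRNA hairpin.
Mir29a: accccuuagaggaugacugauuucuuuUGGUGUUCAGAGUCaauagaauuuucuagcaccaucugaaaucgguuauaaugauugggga
Mir29b-1: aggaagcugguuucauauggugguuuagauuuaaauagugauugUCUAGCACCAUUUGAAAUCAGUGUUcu
Mir29b-2: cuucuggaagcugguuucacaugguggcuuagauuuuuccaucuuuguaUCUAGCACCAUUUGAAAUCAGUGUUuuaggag
Mir29c: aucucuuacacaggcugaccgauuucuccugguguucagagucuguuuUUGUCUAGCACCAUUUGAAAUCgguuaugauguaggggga
Mir29b-1 and Mir29b-2 have a run of 25 bases in common, which covers all of miR-29b-3p. Mir29c shares 22 bases with Mir29b-1, which take in the first 17 bases of its 3p arm and stop before the end of that arm. The longest run of Mir29a that recurs elsewhere is 14 bases, in Mir29c, and lies outside its 3p arm.

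In both replicates nearly all counts of the family came from Mir29c and Mir29a, and the miR-29b genes were close to 0. On the strand of the genes the family had 489 counts among 5202588 in replicate 1 and 466 among 3683978 in replicate 2. The family's share was thus 0.00940% for replicate 1, with 0.00858 to 0.0103 as the 95% interval (exact, Clopper-Pearson). For replicate 2 it was 0.0126% with an interval of 0.0115 to 0.0139, and the shares averaged 0.0110% ± 0.00230 (SD, n = 2). An equal split of all counts over 1973 genes would give each gene 0.0507%, more than the 4 members held together. Only 716 of the 1973 genes had a count, so most genes lay below an equal split too. Mir29a and Mir29c made up 97.8% of the family's counts in replicate 1 (exact interval 96.0 to 98.9) and 99.1% in replicate 2 (97.8 to 99.8). All intervals cover counting error only, since PCR copies cannot be separated from independent molecules here.

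Mir29c was the most abundant member. The replicates held 331 and 263 counts of it, which is, per 1000000 own-strand miRNA counts (CPM), 63.6 CPM (exact interval 57.0 to 70.9) and 71.4 CPM (63.0 to 80.6). The replicates lay close together, with a mean of 67.5 ± 5.49 CPM (SD, n = 2), rank 199 of all genes by mean and ranks 203 and 195 in replicates 1 and 2.

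Mir29a came next and varied more. Its 147 counts in replicate 1 and 199 in replicate 2 amounted to 28.3 CPM (23.9 to 33.2) and 54.0 CPM (46.8 to 62.1). Its mean was 41.1 ± 18.2 CPM (SD, n = 2), rank 221 by mean, with rank 235 in replicate 1 and rank 207 in replicate 2. Mir29a was lower than Mir29c in both replicates.

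Mir29b-2, the neighbour of Mir29c, had 10 counts in replicate 1 and 2 in replicate 2, or 1.92 CPM (0.922 to 3.53) and 0.543 CPM (0.0657 to 1.96). Its mean was 1.23 ± 0.975 CPM (SD, n = 2), at rank 406. Mir29b-1, the neighbour of Mir29a, had 1 count in replicate 1 and 2 in replicate 2, or 0.192 CPM (0.00487 to 1.07) and 0.543 CPM (0.0657 to 1.96). Its mean was 0.368 ± 0.248 CPM (SD, n = 2), at rank 548, a place it shared with 14 genes, itself included. No difference between the miR-29b genes was computed: they had 10 counts for Mir29b-2 and 1 for Mir29b-1 in replicate 1, and 2 counts each in replicate 2. A count of 3, the upper limit that 0 counts allow, is 0.577 CPM at the depth of replicate 1 and 0.814 CPM at that of replicate 2, so Mir29b-1 was below that level in both replicates and Mir29b-2 in replicate 2.

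**Figure D1:**
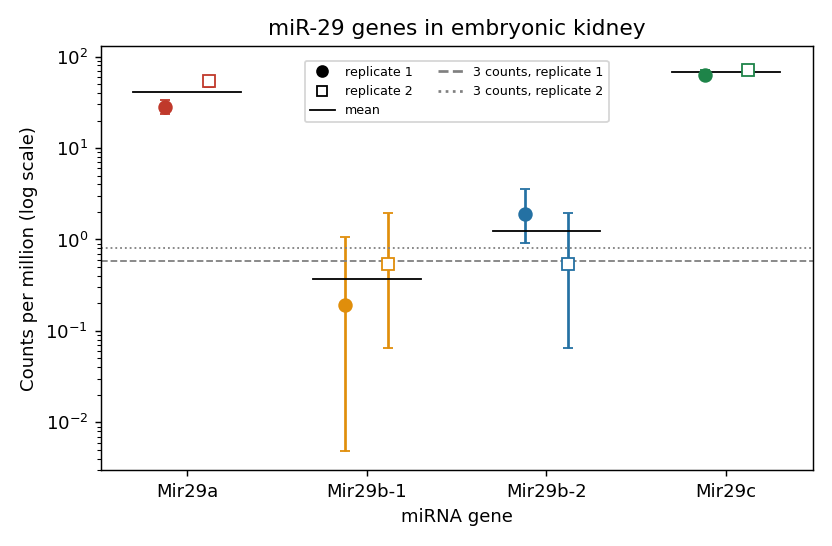
CPM of the 4 miR-29 genes on a log scale, with replicate 1 as filled circles, replicate 2 as open squares, exact 95% intervals of counting error as bars, the mean as a black line and the level of 3 counts in grey. Mir29a and Mir29c lie between 28.3 and 71.4 CPM, and the intervals of Mir29b-1 cross the grey lines in both replicates.

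With a minimum of 10 counts in both replicates taken as detection, 345 of 1973 genes (17.5%) were detected, and 2 of the 4 members, Mir29a and Mir29c. In replicate 1 taken alone Mir29b-2 also met the minimum, with exactly 10 counts. Above Mir29c stood 198 detected genes and above Mir29a 220, so both lay in the lower part of the detected range.

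**Figure D2:**
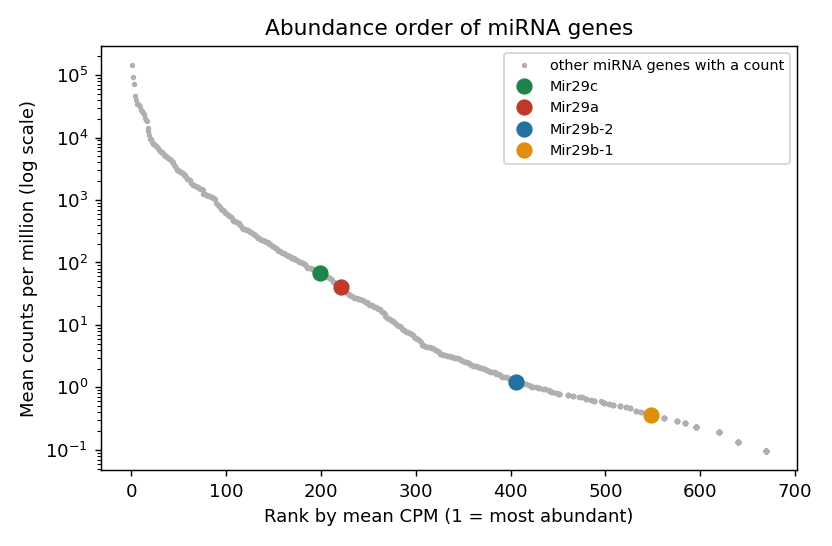
Mean CPM on a log scale against rank for the miRNA genes with a count (grey), with the 4 miR-29 genes in colour. Mir29c and Mir29a sit at ranks 199 and 221, and Mir29b-2 and Mir29b-1 at ranks 406 and 548 among genes with few counts.

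With 1 group of samples there is no pattern across conditions to match, so the genes nearest in mean CPM are given as the most alike. Mir29c lay between Mirlet7c-2, a let-7 gene, at 72.9 ± 18.7 CPM and Mir376c, of the imprinted Dlk1-Dio3 region, at 66.5 ± 14.2 CPM (SD, n = 2 each). It differed from each by less than its own SD of 5.49 CPM. Mir29a lay between Mir673 at 41.9 ± 1.38 CPM and Mir496a at 39.5 ± 7.81 CPM (SD, n = 2 each), and differed from both by less than 2 CPM, well within its SD of 18.2 CPM. Mir29b-2 lay between Mir5132, with 13 and 0 counts in replicates 1 and 2, and Mir6956, with 7 and 4.

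Within each cluster the member with its own mature sequence had far more counts than the miR-29b gene beside it. In the chromosome 6 cluster, Mir29a and Mir29b-1 had 147 and 1 counts in replicate 1, a ratio of 147 (exact interval 26.0 to 5845), and 199 and 2 counts in replicate 2, a ratio of 99.5 (27.2 to 827). In the chromosome 1 cluster, Mir29c and Mir29b-2 had 331 and 10 counts in replicate 1, a ratio of 33.1 (17.8 to 69.7), and 263 and 2 counts in replicate 2, a ratio of 131.5 (36.0 to 1092). On the scale of log2(CPM + 1), which understates ratios to genes near 0, Mir29a exceeded Mir29b-1 by 4.89 ± 0.38 and Mir29c exceeded Mir29b-2 by 5.01 ± 0.77 (SD, n = 2 each). These pairs were chosen with earlier results of the data known, so their differences are descriptions with no test.

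Reads that mapped to several places form a tally of their own in the tables and enter no gene's count, so a read that fits Mir29b-1 and Mir29b-2 equally adds to neither. There were 2960222 of them in replicate 1, 28.3% of all reads, and 1862424 in replicate 2, 27.5%. For each count of the miR-29 family that tally held 6054 reads in replicate 1 and 3997 in replicate 2. As many reads as Mir29c had counts would make up 0.0112% of the tally in replicate 1 and 0.0141% in replicate 2. The tables do not say which sequences the tally holds, so how much miR-29b-3p is among those reads was not tested.

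Exact matching of the arms to the annotated hairpins shows which reads could be placed on 1 gene by their letters alone. A whole miR-29b-3p occurs in 2 hairpins, Mir29b-1 and Mir29b-2, and none of its prefixes from 10 bases up occurs in fewer. A read of miR-29c-3p from its first base matches 3 hairpins up to 17 bases, namely Mir29c, Mir29b-1 and Mir29b-2, and 1 hairpin from 18 bases. For miR-29a-3p, 11 bases are enough to match 1 hairpin. Only annotated hairpins were searched and no mismatch was allowed, so copies elsewhere in the genome and the aligner's tolerance are not covered. The counts of Mir29b-1 and Mir29b-2 are therefore uncertain as measures of miR-29b, and so are the family sums above.

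**Figure D3:**
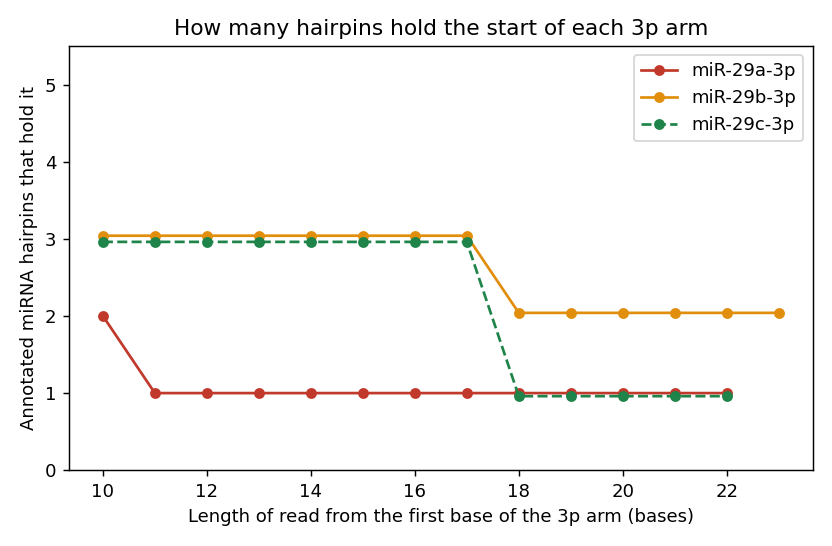
Number of annotated miRNA hairpins that hold the first bases of each miR-29 3p arm, against the number of bases, with lines shifted slightly where they would overlap. From 18 bases miR-29c-3p matches 1 hairpin, while miR-29b-3p still matches 2 at its whole length.

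Other genes with a shared mature arm give a frame for the miR-29b genes. Of the 916 counted genes with an arm in the RefSeq table, 81 have an arm identical to that of another counted gene and 835 do not. Of those with a shared arm, 42 (51.9%) were detected, against 273 (32.7%) of those without. Over all genes of each set the median was 3.77 CPM with a shared arm and 0.481 CPM without, and among detected genes alone it was 60.2 CPM with and 128 CPM without. The genes with a shared arm held 1.56% of counts, and those without held 94.9%. Genes with a shared arm were thus lower among detected genes, and higher over all genes of the table. Of the 81 genes, 52 had a count in at least 1 replicate, and Mir29b-2 and Mir29b-1 were below 46 and 49 of these 52.

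Arms identical in exactly 2 counted genes of the RefSeq table gave 34 pairs of genes. Through its other arm a gene can also be in another pair or a larger group. Loci outside that table or the counts are not seen. In 20 pairs both genes were detected, in 2 pairs 1 gene was, and in 12 pairs neither was, 7 of them with no count at all. Mir29b-1 and Mir29b-2 were among the 5 pairs with counts but no detected gene, at 1.60 CPM together, rank 26 of 34. At the top of the same order, and named after their values were seen, were Mir92-1 and Mir92-2 at 4711 CPM together and Mir16-1 and Mir16-2 at 2851 CPM together. Pairs with an identical arm therefore occurred with high as well as with very low counts, and which arm gave the counts is not known.

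The differences inside the miR-29 clusters were set beside those of other clusters with a shared arm. Neighbours were taken as miRNA genes within 10 kb on 1 strand, 1 without and 1 with a shared arm. Of 58 such pairs, the 53 with a detected gene without a shared arm were kept. In 51 of these 53 pairs the gene without a shared arm was higher. Their median difference was 5.40 on the scale of log2(CPM + 1), with a range of -6.26 to 11.2. Mir29c over Mir29b-2 was at place 30 and Mir29a over Mir29b-1 at place 31 in the order from largest to smallest. The 53 pairs come from 19 genes with a shared arm and overlap in their members, so they are not independent. Many hold a shared gene of the Mir3070 locus on chromosome 12 or the Mir450 locus on chromosome X. These loci weigh heavily on the median and on the places. Requiring the gene without a shared arm to be detected favours positive differences, and the pairs left out had differences between -7.31 and 0. A difference on this scale cannot exceed the level of the higher gene, so with a neighbour near 0 the place in the order follows how abundant the higher gene is and gives no measure of how strongly a cluster is affected. Among pairs whose gene without a shared arm had at least 1000 CPM, the extremes were Mir322 over Mir450-2 at 11.2 ± 0.21, Mir127 over Mir3070b at 10.8 ± 0.04 and Mir431 over Mir3070b at 10.6 ± 0.17 at one end. Mir3070b had 0 counts in both replicates, so the size of its differences depends on the pseudocount. At the other were Mir20a over Mir92-1 at 1.46 ± 0.15, Mir15a over Mir16-1 at 0.57 ± 0.11 and Mir18 over Mir92-1 at 0.10 ± 0.18 (SD, n = 2 each). Mir92-1 and Mir16-1, which have a shared arm, thus had high counts, at 4578 and 2167 CPM. A gene was classed as shared if any of its arms was. Whether these counts came from the shared arm is not known.

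**Figure D4:**
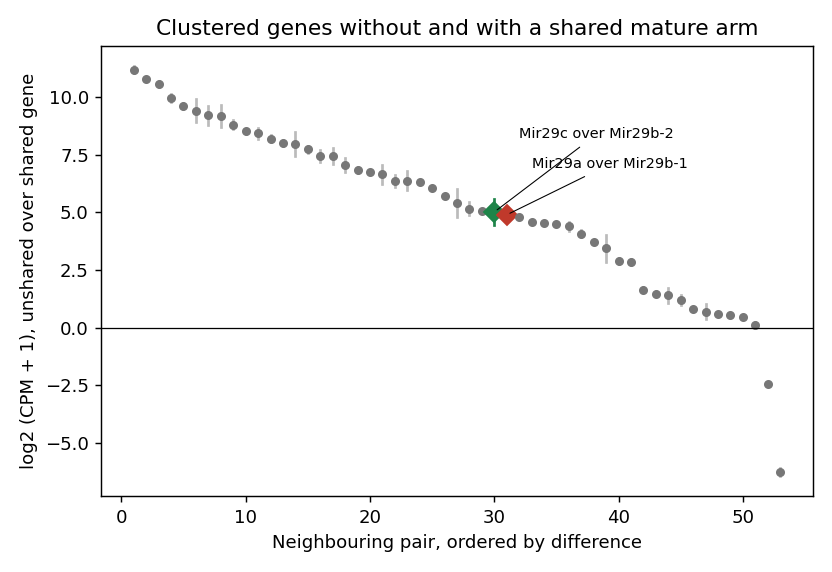
Difference in log2(CPM + 1) between neighbouring miRNA genes without and with a shared mature arm, ordered by size, with a line between the replicates' values and a symbol at their mean. The miR-29 pairs, in colour, lie at places 30 and 31 of 53, in an order where a few loci hold many of the pairs.

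The proportion of Mir29a to Mir29c, the members with a sequence of their own, was lower in the library of replicate 1 than in that of replicate 2. Mir29a over Mir29c was 0.444 in replicate 1 (147 and 331 counts, exact interval 0.363 to 0.541) and 0.757 in replicate 2 (199 and 263 counts, 0.626 to 0.913), and the intervals, which cover counting error within a library and not the spread between samples, do not overlap. Of the counts of both genes, Mir29a held 30.8% in replicate 1 (26.6 to 35.1) and 43.1% in replicate 2 (38.5 to 47.7). On the scale of log2(CPM + 1) Mir29a minus Mir29c was -0.77 ± 0.53 (SD, n = 2), so its size is known only roughly although its sign was the same in both.

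The log2 ratio of replicate 2 over replicate 1 was 0.94 for Mir29a (exact interval 0.63 to 1.26), a 1.92-fold difference, and 0.17 for Mir29c (-0.07 to 0.41). Of the 345 detected genes, 53 (15.4%) differed by at least 1.5-fold in either direction and 28 (8.12%) were that much higher in replicate 2. Mir29a was past this fold and Mir29c was not. Of the detected genes, 16 had a ratio of larger size than Mir29a in either direction, 4 of them higher in replicate 2. The median size of the log2 ratio was 0.24 over detected genes and 0.30 over the 68 whose mean CPM was within 2-fold of that of Mir29a. With 1 library on each side, the ratio compares the libraries only. Mir29b-1 and Mir29b-2 had too few counts for a ratio, with intervals that span 0.

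**Figure D5:**
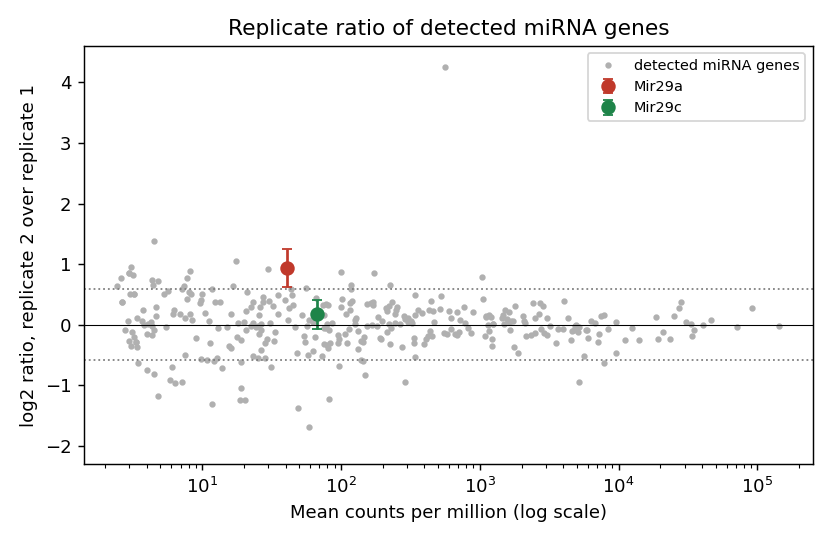
The log2 ratio of replicate 2 over replicate 1 against mean CPM (log scale) for the 345 detected miRNA genes, with exact intervals of counting error for Mir29a and Mir29c and dotted lines at 1.5-fold. Mir29a at 0.94 lies above the dotted line and Mir29c at 0.17 within the lines.

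Marker miRNAs of the kidney and of other tissues describe the libraries in which these values stand. The epithelial miR-200 genes (5 of 5 detected) summed to 26799.5 and 23488 CPM in replicates 1 and 2, the stromal and smooth muscle list (5 of 5) to 24805 and 25420 CPM, and endothelial Mir126a to 45180 and 47759 CPM. The leukocyte list (3 of 3) summed to 640 and 591 CPM and the tubule list (3 of 4) to 353 and 490 CPM. Of the neuronal list 0 of 5 genes were detected (1.35 and 1.90 CPM) and of the muscle list 1 of 4 (72.3 and 53.5 CPM). In each of these lists 3 genes were at 0 counts. Mir124a, Mir9 and Mir133a are each made at several loci as the same mature miRNA, and reads that fit several loci are in no gene's count, so these low counts do not show that the miRNAs are absent. Mir122, the hepatocyte miRNA, differed widely, with 56.3 CPM for replicate 1 against 1074 CPM for replicate 2, and erythroid genes (3 of 3) at 161 and 77.6 CPM. Mir29a was thus higher in the library with more Mir122 and fewer erythroid counts, and their part in its ratio was not tested.

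Among 23 genes of miRNAs linked to fibrosis in other settings, 21 were detected, 18 stood above Mir29c and 19 above Mir29a. Of all 1973 genes 345 (17.5%) were detected, and 198 of these stood above Mir29c and 220 above Mir29a. The list is hand-chosen and holds many abundant genes: its miR-30 genes range between 75.6 CPM for Mir30c-2 and 20748 CPM for Mir30e, and its miR-200 genes between 706 CPM for Mir200a and 14037 CPM for Mir429. It therefore gives levels side by side and no measure of how low the miR-29 genes are. Mir21a, which is described as promoting kidney fibrosis, was at 7260 ± 543 CPM, Mir214 at 6006 ± 667 CPM and Mir192 at 174 ± 70.1 CPM (SD, n = 2 each), all above Mir29c at 67.5 ± 5.49 CPM. Below Mir29c were Mir26a-2, Mir26a-1 and Mir199a-1, which have a shared arm, at 54.1, 20.9 and 3.32 CPM. Also below it were Mir133a-1 and Mir133a-2 at 0 counts. Mir133a is made at several loci too, so the limit on reads that fit several loci holds for all of these genes. It also holds for Mir30c-1, Mir30c-2 and Mir199a-2, which stood above Mir29c and have a shared arm.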

How the data were processed

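Small RNA reads of 2 libraries of embryonic mouse kidney were analysed from the deposited raw counts per miRNA gene. The authors' counts rest on assembly mm10 and GENCODE release M4, per the deposited file descriptions. Which aligner and counter made them is not given in the sources used here. Every table has 3 columns of counts (both strands, own strand, opposite strand) and 4 tally rows that name no gene, which held 49.2% and 44.6% of reads in replicates 1 and 2 and were left out of totals. CPM, ratios and ranks were computed here from own-strand counts. Hairpin counts were not scaled by length, since 1 read covers 1 mature arm.

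Symbols and positions came from GENCODE M21 on the same assembly, which named 1894 of 1973 identifiers. The version number of Mir29b-1 and Mir29b-2 is higher there than in the counts, so their M4 boundaries may differ. Mature arms came from RefSeq, with all 4 members matched. A gene whose partner is not in that table counts as having no shared arm.

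By rule the text names the 4 members, the nearest gene on each side in mean CPM and the 3 neighbour pairs at each end of the order. It also names genes of the marker and fibrosis lists and, chosen after their values were seen, Mir10a and the leading pairs with an identical arm. Members and lists were chosen with earlier results of these data known. With 1 group no edgeR quasi-likelihood test was possible; edgeR gave TMM factors (1.00 in both libraries) and DESeq2 size factors served as an alternative. The planned difference between Mir29b-1 and Mir29b-2 was not formed, both being at 2 counts in replicate 2. Intervals were tested on simulated counts that held counting error only, so PCR copies and the spread between samples were not covered by that test. Alternatives were other scalings, strands, count minimums, pseudocounts, definitions of a shared arm, distances, and each replicate alone. Python 3.11.15 was used with scipy 1.17.1, numpy 2.4.6, matplotlib 3.10.9 and pandas 2.3.3, and R 4.3.3 with DESeq2 1.42.0 and edgeR 4.0.16.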

Additional observations from a re-analysis of the deposited data

How the results depend on the processing

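Of 75 alternatives over 14 results, 64 left the value within its replicate SD, its exact interval or 1.5 times its count. That number is no measure of robustness, since many alternatives could hardly move the value. Among them are single replicates and, for the members, unstranded counts, because no member had a count on the opposite strand. No difference changed sign, but a pseudocount added to both genes cannot change a sign. Scaled to all reads of a library, the family held 0.00578%, with Mir29a at 21.7 and Mir29c at 35.3 per 1000000 reads, and without Mir10a in the total Mir29c reached 78.9 CPM. The excess of Mir29a over Mir29b-1 was 5.54 with a pseudocount of 0.5 CPM and 3.05 with 5 CPM, and that of Mir29c over Mir29b-2 was 3.55 with 5 CPM. With at least 1 count as the minimum all 4 members were detected. Counting any 21 shared bases of the hairpin as sharing gave 67 detected genes with shared sequence, Mir29c among them, against 42. The 67 were taken from all counted genes with an annotated hairpin and the 42 from the 916 with a RefSeq arm. The sets of genes thus differ as well as the definition. The median difference of clustered neighbours was 4.23 within 2 kb (30 pairs) and 5.71 within 50 kb (79 pairs). With 2 replicates, leaving 1 out always stays within the SD, so it is no check, and the values per replicate are those of the report: without replicate 1 and without replicate 2, Mir29b-2 was at 0.543 and 1.92 CPM, Mir29b-1 at 0.543 and 0.192 CPM, and Mir29a over Mir29c at -0.40 and -1.14 on the log2 scale. No paired analysis was possible because there is only 1 group. At 1 to 10 counts, the levels of the miR-29b genes are known only within wide counting intervals.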
